A study of Mus musculus with 3 samples.

Results

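The tissue inhibitors of metalloproteinases, Timp1, Timp2, Timp3 and Timp4, were followed across the cells of mouse calvaria, the roof of the skull, in 3 single-cell RNA libraries. The members were the rows with those 4 symbols among 31053 genes, and all 4 were listed in each library. All mice were C57BL/6 and 8 weeks old. The control library came from calvaria that carried no tumour. The scratch_negative library came from calvaria with an implant of HNM007, a line of mouse squamous carcinoma cells, on an unscratched surface, a state the study calls pre-invasive. For the scratch_positive library the surface was scratched with a 21 G needle before implantation, and the lesion is called invasive. Scratching takes away the periosteum, the fibrous layer on the outside of bone. The tumour was cut away and the tissue collected at 1 week from implantation. Live cells with and without CD45, the leukocyte marker encoded by Ptprc, were mixed 1:1 before loading, so that the balance of immune and other cells was set by the mixing. Each group had 1 library, and the number of mice behind it is not given in the sources used here. Scratched bone without an implant was not sampled here, so scratching, loss of periosteum and invasion cannot be told apart.

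TIMPs are small secreted proteins that bind the catalytic zinc site of matrix metalloproteinases (MMPs) and block it, each inhibitor pairing with 1 enzyme molecule. TIMP1 is induced by cytokines of the gp130 family and by AP-1 transcription factors. TIMP2 inhibits metalloproteinases and also takes part in the activation of pro-MMP2 by MT1-MMP, the product of Mmp14. TIMP3 is held in the extracellular matrix and in addition inhibits ADAM and ADAMTS proteases, while TIMP4 is found in few tissues, fat and heart among them. In bone, these inhibitors are set against the MMPs of osteoclasts, osteoblasts and leukocytes.

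In GENCODE annotation of GRCm38, Timp1 (ENSMUSG00000001131) lay on the plus strand at chrX:20870166-20874735 and Timp3 (ENSMUSG00000020044) on the plus strand at chr10:86300372-86349506. Timp2 (ENSMUSG00000017466) lay on the minus strand at chr11:118301069-118355740, and Timp4 (ENSMUSG00000030317) on the minus strand at chr6:115241892-115252205. Timp1, Timp3 and Timp4 each overlapped a synapsin gene, Syn1, Syn3 and Syn2, on the opposite strand, and Cep295nl overlapped Timp2 on the same strand. The results turn mainly on Timp1 and Timp2, so the 250 bases before the RefSeq start of each are shown, on GRCm38.p6, in the direction of the gene. For Timp1 the RefSeq and GENCODE starts were the same. For Timp2 the RefSeq start lay inside the GENCODE gene, so the stretch shown falls within the gene bounds given above. Capitals mark AGGAAG, an ETS core, and GGGCGG, a GC box, on either strand.
Timp1, chrX:20869916-20870165, plus strand: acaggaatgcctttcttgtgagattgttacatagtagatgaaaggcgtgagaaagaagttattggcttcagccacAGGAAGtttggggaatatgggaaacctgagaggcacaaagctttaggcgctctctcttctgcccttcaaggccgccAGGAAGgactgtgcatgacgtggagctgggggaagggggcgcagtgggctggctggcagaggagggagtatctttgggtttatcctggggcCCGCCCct
Timp2, chr11:118355412-118355661, minus strand: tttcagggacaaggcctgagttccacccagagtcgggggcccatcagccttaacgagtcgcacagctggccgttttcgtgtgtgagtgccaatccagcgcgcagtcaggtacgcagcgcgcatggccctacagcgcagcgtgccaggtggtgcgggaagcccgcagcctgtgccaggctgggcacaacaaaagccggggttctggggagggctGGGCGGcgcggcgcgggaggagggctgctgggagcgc
A stretch after the start of Timp1 is known for an AP-1 element of unusual sequence beside an ETS element, and its bases 19 to 48 are shown with TGAGTAA and AGGAAG in capitals.
Timp1, chrX:20870184-20870213, plus strand: tgggtggaTGAGTAAtgcgtccAGGAAGcc
All 4 members matched a RefSeq window of 300 bases, from 250 before to 50 after the start. TGAGTAA stood in the Timp1 window alone among the 4 and in 2.68% of 32851 such windows of mouse genes. AGGAAG stood in the windows of Timp1, Timp3 and Timp4 and in 35.4% of all windows. GGGCGG stood in those of Timp1, Timp2 and Timp3 and in 35.7% of all. The usual AP-1 motif TGANTCA, found in 7.81% of windows, the STAT motif TTCNNNGAA, found in 8.30%, and TATAAA, found in 13.6%, were in none of the 4 on either strand. A match is a run of letters, not evidence of binding.

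After filtering, 6182 control, 7585 scratch_negative and 8423 scratch_positive cells remained. Their median depth was 8876, 11247 and 36176 unique molecular identifiers (UMIs, one per captured RNA molecule). Levels are given as CPM, the UMIs of a gene in every 1000000 UMIs of its cell class. Because one UMI is counted per molecule at its 3′ end, CPM does not scale with transcript length. Intervals in brackets are 95% and cover counting error only, not the spread between mice. Between 2 libraries, a gene is called higher or lower in a class under a size rule, a ratio of 1.5-fold or more with an interval that excluded 1. No test between groups exists with 1 library each.

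Of 27 clusters, 4 stayed unnamed and the others were named from marker genes. The fibroblast/periosteal class was 1 cluster of 67, 237 and 133 cells in control, scratch_negative and scratch_positive, led by genes such as Clec3b, Fmod, Mgp and Angptl1. All 13 of its markers were detected in each library, with summed levels of 75778, 50689 and 43007 CPM. Smooth muscle markers summed to 538, 1152 and 2801 CPM in it, and neutrophil markers to 37026, 47913 and 13965 CPM. Cluster 26 had 359 scratch_negative and 307 scratch_positive cells and none in control. It also carried fibroblast markers (57238 and 36134 CPM) and was led by Crabp1, Gzmd, Tagln, Lox, Actg2 and Lrrc15, and it stayed unnamed. Tumour cells, named by epithelial markers, numbered 164 in scratch_negative and 3467 in scratch_positive. The class named osteoblast-lineage (61, 72 and 15 cells) was mixed, with Bglap and Ibsp but also Adipoq and Cxcl12 among its leading genes. Because scratch_positive held only 15 of these cells, its values there are given without a comparison.

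**Figure D1:**
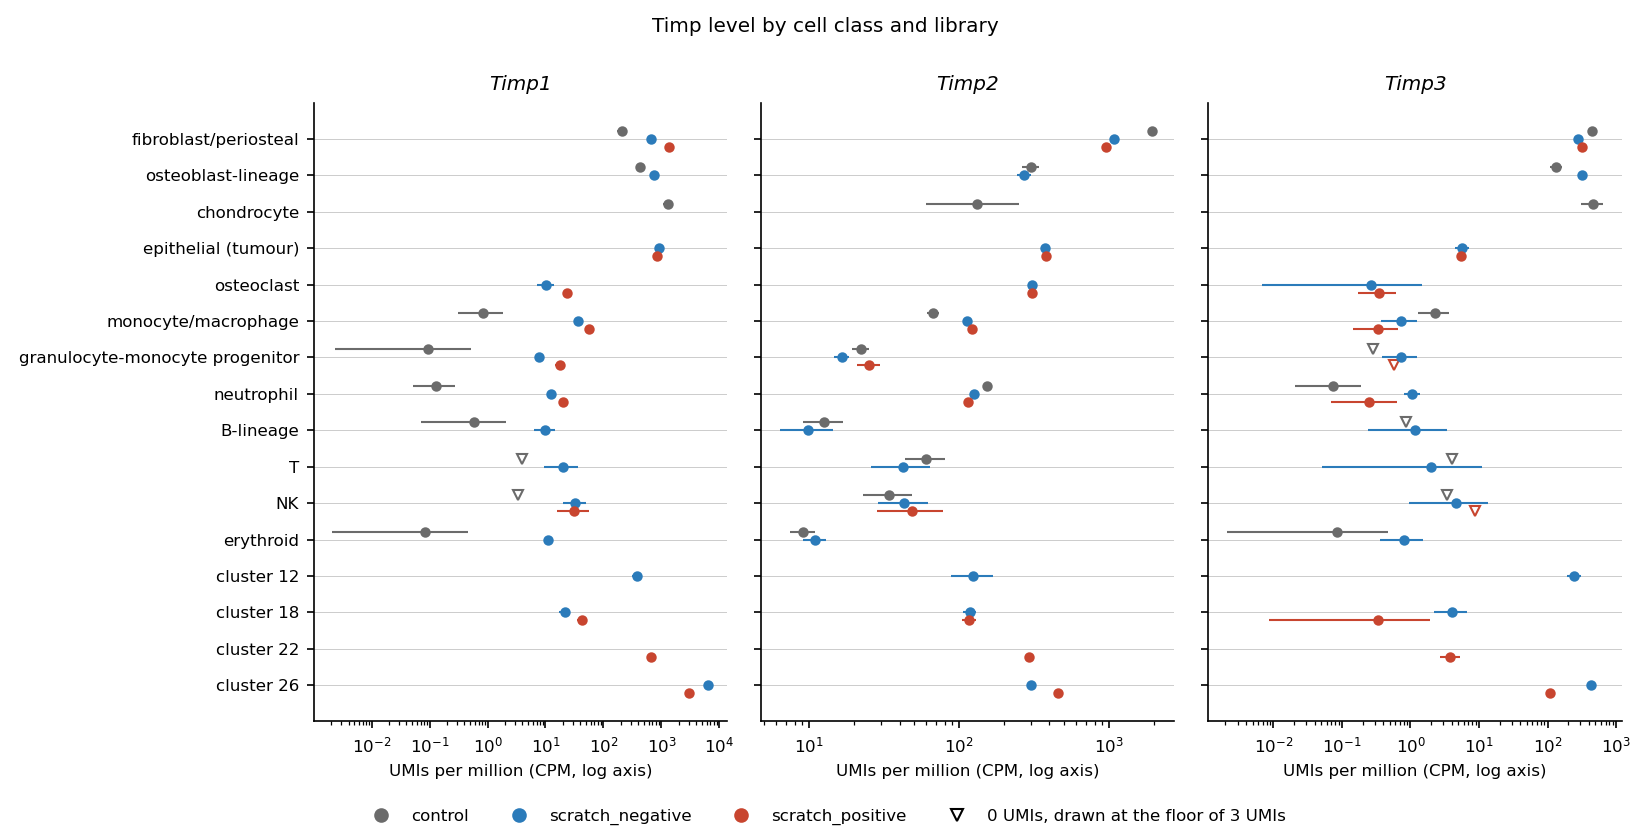
Level of Timp1, Timp2 and Timp3 (CPM, log axis) in every cell class with at least 40 cells, one colour per library, with 95% counting intervals. An open triangle marks 0 UMIs, drawn at the floor of 3 UMIs. Timp1 and Timp3 were high in stromal classes, and Timp2 was present in nearly every class. Timp4 is not drawn.

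Timp1 was the member that differed most between the libraries. The control cells kept held 554 Timp1 UMIs, against 110319 in scratch_negative and 245270 in scratch_positive. These counts do not allow for the unequal depth of the libraries. Over all UMIs of the cells kept, Timp1 was at 757 CPM in scratch_negative and 711 in scratch_positive. The larger scratch_positive count was therefore not a higher level. In control, 59.0% of the Timp1 UMIs were in osteoblast-lineage cells, 20.8% in fibroblast/periosteal cells and 16.2% in chondrocytes. These classes held 0.841%, 0.616% and 0.0755% of all control UMIs. In scratch_negative, cluster 26 alone held 84.2% and tumour cells 10.5%, beside 10.0% and 8.73% of all UMIs. In scratch_positive the order was turned around, with 81.7% in tumour cells and 12.6% in cluster 26. Beside these stood 69.4% and 2.97% of all UMIs in that library. The 2 tumour-bearing libraries thus drew most of their Timp1 from different cells.

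**Figure D2:**
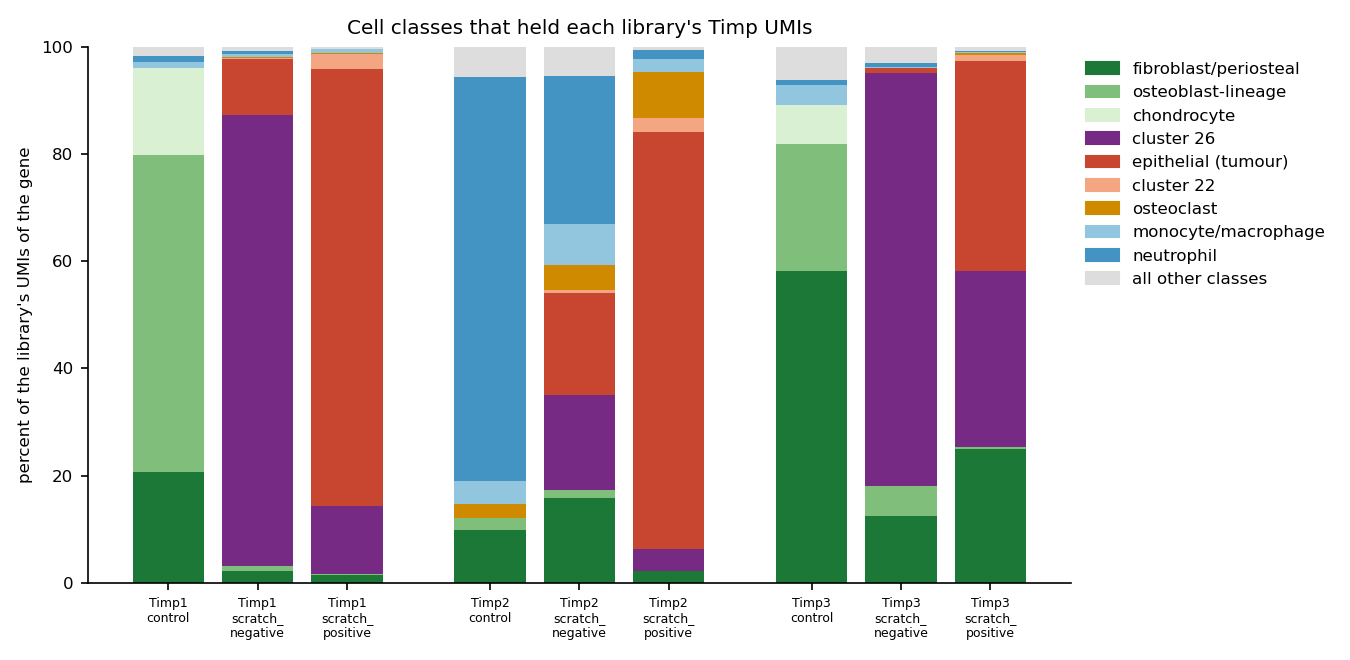
Share of each library's Timp1, Timp2 and Timp3 UMIs (percent, stacked) by cell class in the cells kept. Timp1 was counted mainly in osteoblast-lineage cells in control (59.0%), cluster 26 in scratch_negative (84.2%) and tumour cells in scratch_positive (81.7%). Those scratch_positive tumour cells held 69.4% of all UMIs of their library. Control neutrophils held 75.4% of Timp2 UMIs and 58.9% of all UMIs.

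The Timp1 level in fibroblast/periosteal cells was 206 CPM [170 to 247] in control, 668 [641 to 695] in scratch_negative and 1371 [1326 to 1416] in scratch_positive. It was 3.25-fold higher [2.69 to 3.95] in scratch_negative and 6.66-fold higher [5.53 to 8.09] in scratch_positive than in control, and 2.05-fold higher [1.95 to 2.16] in scratch_positive than in scratch_negative. The 3 libraries were ordered the same way over single cells, with a Timp1 UMI in 41.8%, 73.8% and 87.2% of them and a median cell at 0, 201 and 609 CPM. With every cell thinned to 2000 UMIs, which left out 17, 7 and 2 shallower cells, the shares were 30%, 47.0% and 63.4%. The control value rests on 115 UMIs, 53.0% of them in 5 cells. Krt8, an epithelial keratin, was at 0, 1.64 and 79.6 CPM in these classes, and with cells holding a Krt8 UMI left out the scratch_positive to scratch_negative ratio was 1.94.

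Timp1 in this class depended on where the border to cluster 26 was drawn. Joining cluster 26 to the class gave 25.4-fold higher in scratch_negative and 13.05-fold higher in scratch_positive than in control, and turned the ratio of scratch_positive to scratch_negative to 0.513. Classes from a finer clustering, in which finer clusters 17 and 38 formed the class, gave 26.2, 22.8 and 0.869. Finer cluster 17 alone, with 48, 197 and 114 cells, was at 204, 649 and 1451 CPM. Timp1 was higher than control in both tumour-bearing libraries under every setting tried, but which of those was the higher one changed with the border. Timp1, Timp3 and Timp4 were themselves among the variable genes behind the clusters, and clustering without the Timp genes gave 3.44, 7.05 and 2.05.

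Cluster 26 held the highest Timp1 level of any class with at least 40 cells in both libraries that contained it. The level was 6373 CPM [6332 to 6415] in scratch_negative and 3019 [2985 to 3053] in scratch_positive, 2.11-fold lower [2.08 to 2.14]. All of its cells had a Timp1 UMI, and the median cell stood at 5214 CPM in scratch_negative and 1457 in scratch_positive. The finer clustering divided this population. Finer cluster 38, with 354 scratch_negative and 59 scratch_positive cells, was at 6441 and 8042 CPM, a ratio of 1.25 [1.23 to 1.27] that was not past the size rule. Finer cluster 39 had 247 scratch_positive cells and was at 1747 CPM. The level of cluster 26 was thus taken over 2 finer groups in different proportions, and within finer cluster 38 Timp1 was not lower in scratch_positive. Timp1 was itself among the variable genes behind these finer groups, which were not redrawn without the Timp genes. The split can therefore in part sort cells by Timp1 and does not decide why the cluster 26 level was lower. The summed neutrophil markers in cluster 26 were 32653 and 2750 CPM, the smooth muscle markers 1986 and 9930, and the epithelial markers 67.7 and 167. Their part in the lower Timp1 level was not tested.

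**Figure D3:**
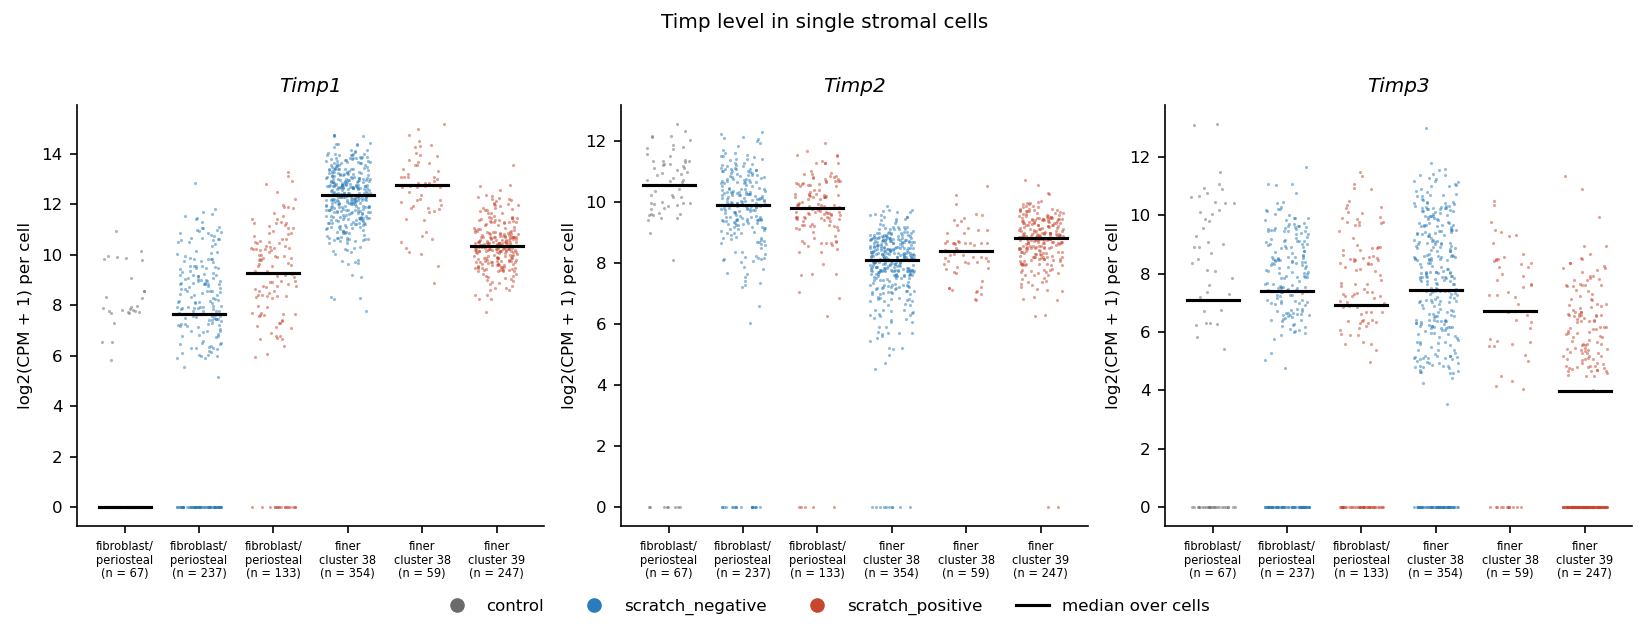
Timp1, Timp2 and Timp3 in single cells (log2 of CPM plus 1) of the fibroblast/periosteal class in each library and of finer clusters 38 and 39, one dot per cell, the bar marking the median. In the fibroblast/periosteal class the Timp1 median was 0, 201 and 609 CPM in control, scratch_negative and scratch_positive, and the cells of finer cluster 38 lay above them.

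Tumour cells carried Timp1 at similar levels in both implanted states, 909 CPM [892 to 926] in scratch_negative and 838 [834 to 841] in scratch_positive, a ratio of 0.922. A Timp1 UMI was present in 99.4% and 99.8% of them, and the 10th to 90th percentiles of single cells ran from 345 to 1821 and from 357 to 1409 CPM. The rise in the tumour's share of Timp1 UMIs between the libraries went with the number of tumour cells kept, 164 against 3467, and not with the CPM. Cluster 22, unnamed and carrying Krt8 at 898 CPM, was at 654 CPM in scratch_positive.

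Cartilage and bone cells also held Timp1. Control chondrocytes, 71 cells with a median of 949 UMIs each, had the highest control level, 1313 CPM [1056 to 1614] from 90 UMIs. Osteoblast-lineage cells were at 428 CPM in control and 730 in scratch_negative, 1.70-fold higher [1.503 to 1.94]. A single scratch_negative cell held 46.9% of those UMIs, and without the 4 cells that had a Krt8 UMI the ratio was 0.933. In scratch_positive the level was 1165 CPM in 15 cells, with 91.3% of the UMIs in 5 of them. Osteoclasts, the cells that resorb bone, were at 0 UMIs in 25 control cells, 10.1 CPM in 83 scratch_negative cells and 23.9 CPM in 867 scratch_positive cells, 2.37-fold higher [1.71 to 3.37] in the last than in scratch_negative, where 8.51% of all genes compared were higher and 10.2% lower.

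Leukocytes in control were close to empty of Timp1. It was at 0.131 CPM in control neutrophils (7 UMIs in 4486 cells), 12.4 in scratch_negative and 19.9 in scratch_positive, and at 0.0935, 7.71 and 17.9 in granulocyte-monocyte progenitors. NK cells had 0 UMIs in control and were at 32.3 and 31.5 CPM in the tumour-bearing libraries. That was 9.51-fold and 9.29-fold above a floor of 3 UMIs in the control cells, and the ratio intervals began at 7.07 and 6.36. T cells, with 0 UMIs in control, were at 19.97 CPM in scratch_negative. This was 5.01-fold above the same floor, with a ratio interval that began at 3.37. The higher level thus appeared in every leukocyte class compared. The share of all genes higher than control in scratch_negative was 5.01% in neutrophils, 3.3% in progenitors, 3.63% in NK cells and 6.13% in T cells, and in scratch_positive it was 14.0% in neutrophils, 7.72% in progenitors and 7.28% in NK cells. Free RNA in the droplets can also give all classes a low level, so 2 genes that leukocytes should lack are given beside Timp1. Col1a1, a collagen of stroma, was at 16.5, 87.5 and 32.6 CPM in neutrophils, and Krt8 at 0, 1.501 and 26.9 CPM. Both were lowest or absent in control neutrophils, and between the tumour-bearing libraries Col1a1 was lower and Krt8 higher in scratch_positive. In scratch_negative the ratio of Timp1 to Col1a1 was 0.142 in neutrophils, 0.211 in progenitors, 0.196 in T cells and 0.210 in NK cells, against 0.291 in cluster 26, and Timp1 per Krt8 was 8.29 in neutrophils against 0.940 in tumour cells. In scratch_positive the ratio of Timp1 to Krt8 was 0.740 in neutrophils, 0.638 in progenitors, 0.688 in NK cells and 0.913 in osteoclasts, against 0.617 in tumour cells, and Timp1 per Col1a1 was 0.610 in neutrophils against 0.207 in cluster 26. The part of free RNA in the low Timp1 of these classes was not tested.

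Monocytes and macrophages held more Timp1 than neutrophils in each library. Their Timp1 level was 0.851 CPM in control (6 UMIs), 36.3 [33.4 to 39.3] in scratch_negative and 57.2 in scratch_positive, 42.6-fold [19.5 to 117] and 67.2-fold [30.8 to 184] higher than control. Timp1 per Col1a1 was 0.499 in scratch_negative and Timp1 per Krt8 was 1.83 in scratch_positive, above the values of the other leukocytes. Among finer clusters, the highest was one named dendritic, at 108 CPM in 44 scratch_negative cells and 91.6 in 148 scratch_positive cells, with 1.32 Timp1 per Col1a1 and 3.38 Timp1 per Krt8 in the same order. Macrophage-type finer cluster 30 was at 37.5 and 65.3 CPM. Monocyte-type finer cluster 18 was at 1.88 CPM in control and at 15.3 in scratch_negative, where its Timp1 per Col1a1 was 0.142, as in neutrophils. The control cells of this class lay mostly in another cluster than those of the tumour-bearing libraries, so the class comparison sets partly different monocyte and macrophage states against each other.

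Timp2 was the broadest member. It had UMIs in 60.1%, 60.9% and 79.7% of all control, scratch_negative and scratch_positive cells. Neutrophils held 75.4% of its 10822 control UMIs, beside 72.6% of the cells and 58.9% of all UMIs. In scratch_negative they held 27.8% of its 24808 UMIs, beside 58.3% of the cells and 37.9% of all UMIs. Tumour cells held 77.9% of its 115732 scratch_positive UMIs and osteoclasts 8.49%, beside 69.4% and 9.30% of all UMIs. On the CPM scale, however, fibroblast/periosteal cells were the highest of the classes with at least 40 cells in each library. Meningeal cells, 6, 20 and 8 in number, were at 1720, 1196 and 1168 CPM.

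In fibroblast/periosteal cells Timp2 was at 1923 CPM [1810 to 2042] in control, 1074 [1040 to 1108] in scratch_negative and 951 [914 to 989] in scratch_positive. It was 1.79-fold lower [1.67 to 1.92] in scratch_negative and 2.02-fold lower [1.88 to 2.17] in scratch_positive than in control, the opposite direction to Timp1 in the same cells. The ratio of scratch_positive to scratch_negative was 0.886 and not past the size rule. A finer clustering deepened the scratch_negative ratio from 0.558 to 0.232 and joining cluster 26 gave 0.237, and both turned the scratch_positive to scratch_negative ratio above 1, to 1.58 and 1.22. In cluster 26 Timp2 was at 300 CPM and 456 CPM, 1.52-fold higher [1.46 to 1.59] in scratch_positive. The sum of Timp UMIs in fibroblast/periosteal cells was 2578, 2016 and 2642 CPM, while the share of Timp1 in it was 7.98%, 33.1% and 51.9% and that of Timp2 74.6%, 53.2% and 36.0%. Within the class as bordered here, the family total moved less than its makeup. Cluster 26, which lay outside it, had Timp sums of 7098 CPM in scratch_negative and 3583 in scratch_positive. The total thus depends on that border as well.

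Osteoclasts and tumour cells kept Timp2 within narrow limits. Osteoclast levels were 288 CPM [255 to 325] in 25 control cells, 307 [290 to 326] in scratch_negative and 306 [300 to 312] in scratch_positive, a ratio of 0.996 [0.937 to 1.06] between the last 2. Tumour cells were at 374 and 377 CPM, a ratio of 1.01 [0.978 to 1.04]. Osteoblast-lineage cells were at 301 CPM in control and 271 in scratch_negative. Monocytes and macrophages were at 66.8, 112 and 122 CPM, 1.68-fold [1.52 to 1.86] and 1.82-fold [1.65 to 2.01] higher than control. Within cluster 13, which held 281 of the control cells of that class, the ratios were 0.896 and 0.958. Within cluster 15, with 104 control cells, they were 1.56 [1.38 to 1.76] and 1.64 [1.46 to 1.84], so the higher level was seen in one of its clusters and not in the other.

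Neutrophils as a class were at 153, 125 and 114 CPM of Timp2, ratios of 0.818 and 0.747 to control that were not past the size rule. Timp2 differed far more between neutrophil clusters than between libraries. Ordered by their mean level of Cxcr2, a chemokine receptor of mature neutrophils, the progenitor cluster had 21.97, 16.5 and 24.9 CPM in control, scratch_negative and scratch_positive. The cluster next in order, with Mki67, a gene of dividing cells, at 493 CPM in control, had 34.8, 21.5 and 26.2 CPM. Clusters 7 and 8 followed with 74.97 and 164 CPM in control, then clusters 4 and 3 with 204 and 382 CPM. Cluster 0 had the highest level, 441, 425 and 414 CPM, and cluster 1, at the end of the order, had 273, 283 and 178 CPM. Timp2 was thus lowest in progenitors and dividing cells and highest in late clusters, with clusters 2 and 1 lower again. Cxcr2 and Timp2 were measured in the same cells, and depth fell along the order. Cluster 0 made up 20.2%, 14.1% and 7.58% of the neutrophils in control, scratch_negative and scratch_positive. The part of such shifts in the class level was not tested.

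**Figure D4:**
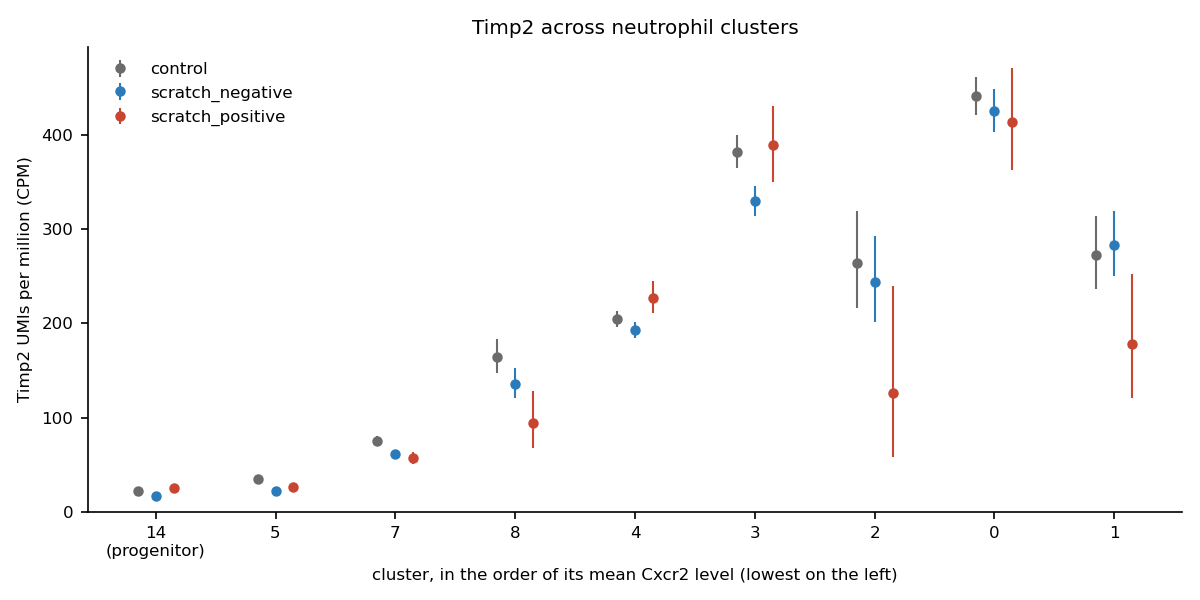
Timp2 level (CPM, with 95% counting intervals) in the progenitor cluster and the 8 neutrophil clusters, ordered from left to right by mean Cxcr2, one colour per library. Control levels run from 21.97 CPM in progenitors to 441 CPM in cluster 0. The 3 libraries lie close together in cluster 0 and further apart in others. Cluster 5 was at 34.8, 21.5 and 26.2 CPM in control, scratch_negative and scratch_positive, cluster 8 at 164, 136 and 94.4, and cluster 1 at 273, 283 and 178.

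By level, Timp3 was highest in stroma and cartilage. The kept cells held 432 Timp3 UMIs in control, 8031 in scratch_negative and 3353 in scratch_positive. Fibroblast/periosteal cells held 58.1% and osteoblast-lineage cells 23.8% of the control UMIs, and cluster 26 held 77.2% of the scratch_negative ones. In scratch_positive 39.2% lay in tumour cells, 32.8% in cluster 26 and 24.96% in fibroblast/periosteal cells. Those classes held 69.4%, 2.97% and 0.758% of all UMIs there. The tumour share came from many cells at a low level, 5.74 CPM in scratch_negative and 5.49 in scratch_positive. Every leukocyte class with at least 40 cells was under 5 CPM.

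Timp3 in fibroblast/periosteal cells was at 449 CPM [395 to 508] in control, 275 [258 to 292] in scratch_negative and 320 [299 to 343] in scratch_positive. It was 1.64-fold lower [1.42 to 1.88] in scratch_negative than in control, and the ratio of 0.713 in scratch_positive was not past the size rule. The median cell was not lower in scratch_negative, standing at 136, 167 and 120 CPM in control, scratch_negative and scratch_positive. A Timp3 UMI was in 62.7%, 73.0% and 69.2% of cells, and in 46%, 36.5% and 31.3% of cells thinned to equal depth. Of the control UMIs, 41.4% lay in 5 of the 67 cells. With cluster 26 joined, 0 of 9 Timp ratios of this class stayed within their counting intervals. The Timp3 ratios thus also depended on that border. In cluster 26 it was at 425 CPM [415 to 436] in scratch_negative and 107 [101 to 114] in scratch_positive, 3.96-fold lower [3.71 to 4.22]. Here the direction was the same within finer cluster 38, at 427 and 203 CPM, and finer cluster 39 was at 83.6 CPM. Control chondrocytes were at 452 CPM. Osteoblast-lineage cells were at 135 CPM in control and 320 in scratch_negative, 2.37-fold higher [1.91 to 2.97], with 45.6% of the scratch_negative UMIs in 1 cell at 15033 CPM.

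Within stroma, the finer clustering also set apart cells led by Rgs5, a gene of pericytes. This finer cluster 32 had 19, 99 and 19 cells in control, scratch_negative and scratch_positive, all from the fibroblast/periosteal class except for 59 scratch_negative cells from the unnamed cluster 12. Timp1 was at 233, 619 and 905 CPM, Timp2 at 817, 228 and 386, and Timp3 at 1050, 275 and 57.3. Under 40 cells in 2 of the libraries, these are given as levels alone.

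Timp4 was rare. There were 23 UMIs in the control cells, 5 in scratch_negative and 3 in scratch_positive. Of the control UMIs, 22 lay in 9 of the 61 osteoblast-lineage cells, a level of 28.8 CPM [18.1 to 43.6], and the highest cell held 9. All 9 had UMIs of Adipoq, Lepr and Cxcl12, genes of marrow stromal cells of the adipocyte lineage, while 1 had a UMI of Bglap, the osteocalcin gene. Adipoq was at 3885 CPM in them and 705 in the other osteoblast-lineage cells, Cxcl12 at 23825 and 4592, and Bglap at 22.4 and 35873. Ibsp, also a marker of the osteoblast lineage, did not set them apart in this way. It had UMIs in 8 of the 9, at 2889 CPM against 5743 in the other cells. The scratch_negative library had 3 UMIs in 2 of 72 cells, 2.18 CPM, a ratio of 0.0758 [0.0145 to 0.252] to control, and scratch_positive had 3 UMIs in 2 of 15 cells. These 4 cells also held Adipoq, Lepr, Cxcl12 and Ibsp. Tumour cells had 0 Timp4 UMIs, and thinning to 2000 UMIs a cell left 1 control UMI and 2 scratch_negative UMIs, too few for a comparison at equal depth.

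**Figure D5:**
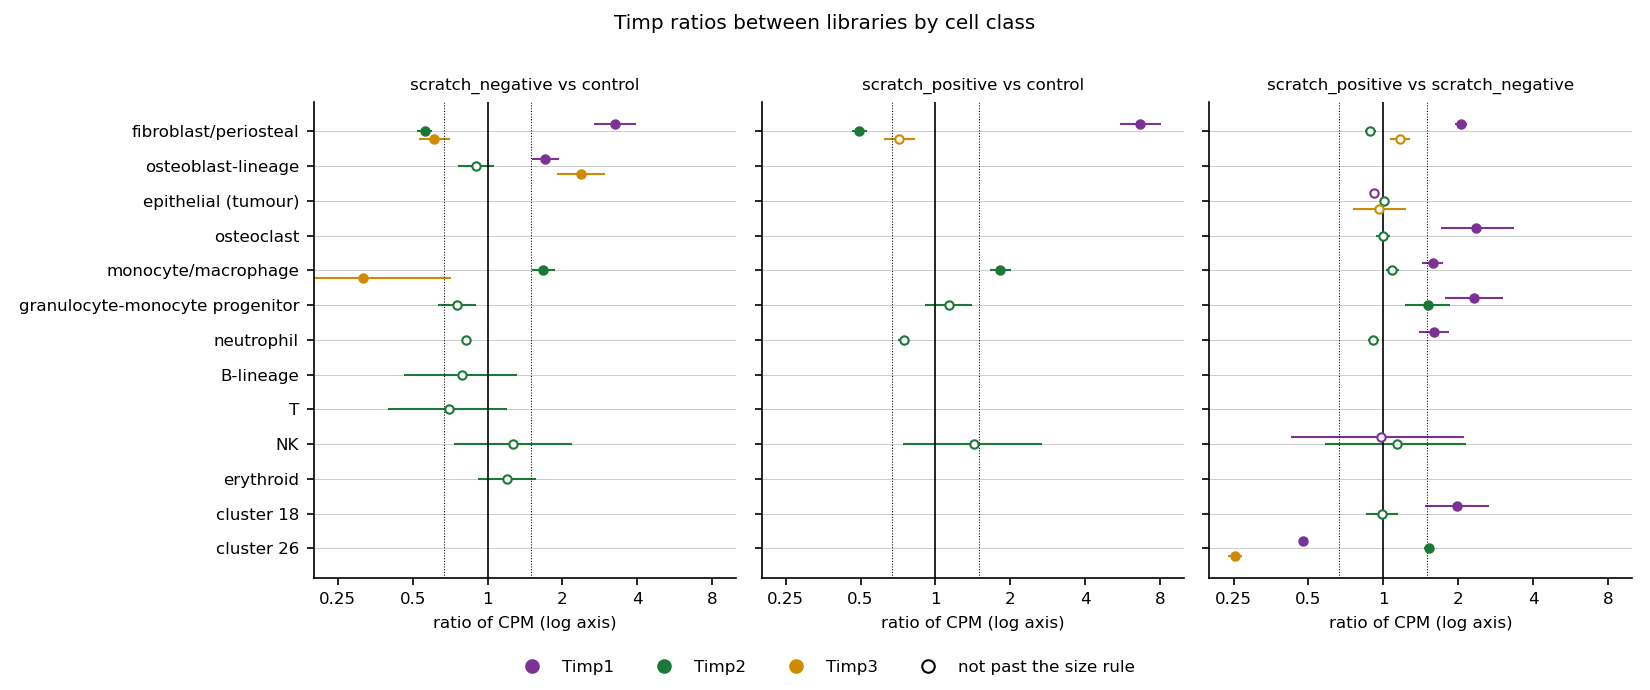
Ratio of Timp1, Timp2 and Timp3 levels between libraries (log axis) for each class with at least 10 UMIs in both libraries, with 95% counting intervals; filled points passed the size rule and dotted lines mark 1.5-fold either way. In fibroblast/periosteal cells Timp1 was higher and Timp2 lower than control in both tumour-bearing libraries, and cluster 26 was lower in Timp1 and Timp3 and higher in Timp2 in scratch_positive.

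The median log2 ratio over all genes lay between -0.10 and 0.08 in these comparisons except for osteoblast-lineage cells (-0.16), neutrophils in scratch_negative against control (-0.14) and monocytes and macrophages in scratch_positive against control (0.22). Counted over the family, 3 of the 4 members could be compared in fibroblast/periosteal cells. Between scratch_negative and control, 1 was higher and 2 were lower, where 5.8% and 6.77% of all 11818 genes compared were higher and lower. Between scratch_positive and control, 1 was higher and 1 lower, against 10.3% and 14.1% of genes. Between scratch_positive and scratch_negative 1 was higher and 0 lower, against 6.98% and 14.7%. In cluster 26, 1 of 3 was higher and 2 were lower, against 13.7% and 15.6%. In osteoblast-lineage cells, 2 of 4 were higher and 1 lower in scratch_negative, against 4.12% and 11.2%. In tumour cells, 0 of 3 passed in either direction between scratch_positive and scratch_negative, where 3.29% of genes were higher and 11.4% lower. In monocytes and macrophages, 2 of 3 were higher and 1 lower in both comparisons with control, against 10.3% and 7.87% in scratch_negative and 27.3% and 12.2% in scratch_positive. The lower member there was Timp3, where 1 of the 385 control cells held 15 of 16 UMIs. Neutrophils had 2 of 3 higher and 0 lower in scratch_negative, against 5.01% and 6.82%, and in scratch_positive 1 of 2 was higher and 0 lower, against 14.0% and 12.9% of genes. In scratch_negative those were Timp1 at 12.4 CPM and Timp3 at 1.05 CPM.

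The metalloproteinases that TIMPs inhibit were counted in the same cells. In fibroblast/periosteal cells, 3 of the 8 secreted MMPs that could be compared were higher and 0 lower in scratch_negative than in control, with a median log2 ratio of 0.23 against 0.00 over all genes. Mmp3, stromelysin 1, was at 17.9, 285 and 17.6 CPM in control, scratch_negative and scratch_positive, 15.9-fold higher in scratch_negative. Of all genes, 5.8% were higher and 6.77% lower there. In scratch_positive 3 of 8 were higher and 2 lower than in control, against 10.3% and 14.1% of genes. Mmp13, a collagenase, was at 234, 262 and 417 CPM, and Mmp2, a gelatinase, at 748, 666 and 443. Mmp14, the membrane protease that works with TIMP2 on pro-MMP2, was at 467, 391 and 457 CPM, and 0 of 4 membrane-type MMPs were past the size rule against control in scratch_negative. The Timp1 and Timp2 differences thus stood beside an even Mmp14.

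Other partners of the inhibitors were mixed. Of 8 ADAM sheddases 2 were higher and 1 lower in scratch_negative fibroblast/periosteal cells, against 5.8% and 6.77% of all genes, and Adam12 was at 34.0, 74.2 and 68.9 CPM. Of 13 ADAMTS proteases 1 was higher, a share near that of all genes. Among 6 other metalloproteinase inhibitors and related genes 1 was higher and 3 were lower, with a median log2 ratio of -0.67 against 0.00 over all genes. In scratch_positive 1 was higher and 4 lower with a median of -1.87 against -0.08, where 10.3% and 14.1% of genes were higher and lower. Reck, a membrane-anchored MMP inhibitor, was at 60.8, 46.7 and 13.01 CPM, and Pcolce2, a collagen processing enhancer, at 267, 136 and 52.0. Pcolce was at 782, 1039 and 840 CPM.

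Genes of the routes known to induce Timp1 were also counted. Of 12 gp130 cytokine, receptor and response genes, 6 were higher and 1 lower in scratch_negative than in control fibroblast/periosteal cells, with a median log2 ratio of 0.94, against 5.8% and 6.77% of all genes and a median of 0.00. Il6st, which encodes gp130, was at 106, 221 and 122 CPM, and Socs3, a feedback inhibitor of that route, at 224, 401 and 509. Il11ra1, a receptor subunit, was at 556, 895 and 513 CPM. In scratch_positive 6 of 13 were higher and 1 lower, with a median of 0.68, against 10.3% and 14.1% of genes and a median of -0.08. Of 12 AP-1 and early response genes, 6 were higher and 1 lower in scratch_negative and 5 higher and 1 lower in scratch_positive, beside the same shares of all genes. Junb was at 657, 1027 and 1251 CPM. In cluster 26, where Timp1 was lower in scratch_positive, 2 of 13 gp130 genes were higher and 7 lower with a median of -0.94, and 1 of 12 AP-1 and early response genes was higher and 5 lower with -0.54. Over all genes in that cluster 13.7% were higher and 15.6% lower, with a median of 0.07. Il6st there was at 161 and 76.4 CPM and Fos at 2098 and 1083. These counts are for cluster 26 as a whole, which held finer groups in different proportions in the tumour-bearing libraries. Within the finer group compared between those libraries, Timp1 was not lower in scratch_positive, but Timp1 was among the variable genes that drew that group. Whether the gp130 or AP-1 genes had a part in any Timp1 difference was not tested.

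In several other classes the summed enzyme RNA exceeded that of the inhibitors. The summed MMPs exceeded the summed Timps 15.03-fold, 13.2-fold and 11.01-fold in neutrophils of control, scratch_negative and scratch_positive, 11.1-fold, 8.95-fold and 4.90-fold in monocytes and macrophages, and 5.48-fold and 10.8-fold in scratch_negative and scratch_positive osteoclasts. In control monocytes and macrophages, 59.3% of the MMP sum was Mmp8 and 36.4% Mmp9, both on the neutrophil marker list. Neutrophil markers summed to 264668, 287168 and 135272 CPM in that class in control, scratch_negative and scratch_positive. The part of neutrophil RNA in its enzyme sums was not tested. Osteoclast Mmp9 was at 1427 and 3267 CPM, 2.29-fold higher in scratch_positive, beside the even Timp2. In osteoblast-lineage cells the Timps were 0.430 and 0.904 times the MMPs in control and scratch_negative. In fibroblast/periosteal cells the Timps were 1.35, 0.9695 and 1.56 times the MMPs, in cluster 26 6.58 and 3.62 times, and in tumour cells 7.85 and 11.9 times. In cluster 26, Mmp2 was at 406 and 209 CPM and Mmp14 at 273 and 448. These are sums of RNA and say nothing of protein activity.

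Genes with the most similar pattern to each Timp were taken by Pearson correlation of log2(CPM + 1) over 34 pairs of class and library, among 12375 genes. The pairs share libraries and free RNA, so the values are descriptions. For Timp1 they were Fscn1 (0.951), Igfbp7 (0.948), Cxcl1 (0.937), Pcolce (0.937) and Col6a1 (0.928). For Timp2 they were Rin2 (0.911), Zfhx3 (0.878), Camk1 (0.876), Serpinb6a (0.875) and Anxa5 (0.873). For Timp3 they were Dcn (0.967), Bgn (0.964), Fkbp14 (0.963), Lama4 (0.962) and Sparc (0.962), of which Dcn, Bgn and Sparc encode matrix proteins of connective tissue. For Timp4 they were Sucnr1 (0.995), Sftpa1 (0.979), Gabbr2 (0.972), C6 (0.954) and Crym (0.951), which rests on the 22 control osteoblast-lineage UMIs.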

How the data were processed

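Single-cell RNA was measured in 3 libraries, 1 per group, made with a 10x 3′ kit and sequenced on DNBSEQ-G400, per the labels' protocols. The deposited values were raw UMI counts per gene and cell barcode for 7490, 8517 and 9504 barcodes, from Cell Ranger, whose version the file headers give as 6.1.2, on mm10, per the submitters' processing notes. Libraries shared 16, 24 and 30 barcodes in pairs and 0 in all 3. Everything further was computed here. Barcodes with at least 500 genes and at most 10% mitochondrial UMIs were kept. Scrublet's own threshold marked 6, 0 and 632 barcodes, too few in the first 2 to be a working call, so the highest Scrublet scores were removed at 0.8% per 1000 barcodes. Clusters came from 2000 variable genes, 30 principal components, 15 neighbours and Leiden resolution 1.0 without batch correction, and were named from marker lists. UMIs were summed per class and library. Intervals are exact Poisson for levels, exact Clopper-Pearson for shares and exact conditional binomial for ratios. A ratio needed 10 UMIs in the 2 libraries together and 40 cells in each. Named genes are the 4 Timps, the 4 most abundant members of each list in the class described and the 5 genes most like each Timp. The members and lists were chosen with earlier results of these data known. The ratio calls were tested on simulated data. A comparison of the TIMP proteins had been planned and was not made, as no protein table was used here. Tools were scanpy 1.11.5, anndata 0.12.19, igraph 0.11.9, scikit-learn 1.9.0, scipy 1.17.1, numpy 2.4.6, pandas 2.3.3 and matplotlib 3.10.9 under Python 3.11.15.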

Additional observations from a re-analysis of the deposited data

Results flagged for a closer look

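Some Timp ratios ran in opposite directions in 2 cell classes under the same comparison. With 1 library per group none of these differences was tested. Timp2 in scratch_negative against control was 1.68 in monocytes and macrophages and 0.558 in fibroblast/periosteal cells, and in scratch_positive against control it was 1.82 and 0.495. Timp3 in scratch_negative against control was 2.37 in osteoblast-lineage cells, against 0.612 in fibroblast/periosteal cells and 0.316 in monocytes and macrophages. Of the scratch_negative osteoblast-lineage Timp3 UMIs, 45.6% lay in 1 cell. The median osteoblast-lineage cell stood at 88.7 CPM in control and 0 in scratch_negative, and the median fibroblast/periosteal cell at 136 and 167. A Timp3 UMI was in 54.1% and 41.7% of the osteoblast-lineage cells, and in 17.2% and 26.8% thinned to equal depth. In monocytes and macrophages, 1 control cell held 15 of 16 control UMIs. Timp1 in scratch_positive against scratch_negative was 0.474 in cluster 26 and above 1 in 6 other classes. It was 2.05 in fibroblast/periosteal cells, 2.37 in osteoclasts, 1.58 in monocytes and macrophages, 2.33 in granulocyte-monocyte progenitors, 1.60 in neutrophils and 1.97 in cluster 18. A single scratch_positive progenitor held 41.1% of the Timp1 UMIs of its class. The part of free RNA in the low leukocyte levels was not tested.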

How the results depend on the processing

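Over 568 ratios recomputed under other settings, 439 stayed within their counting interval, 118 moved further and 11 of those past the size rule crossed to the other side of 1. In fibroblast/periosteal cells, Timp1 in scratch_negative against control was 4.15 with a minimum of 200 genes, 26.2 at Leiden resolution 2.0, 25.4 joined with cluster 26, 2.59 as a mean over cells and 2.28 thinned. Timp2 there was 0.232, 0.237 and 0.658 at resolution 2.0, joined and as a mean over cells. In scratch_positive against control, Timp1 was 22.8 at resolution 2.0, 13.05 joined and 4.41 thinned. Timp2 was 0.545 with Scrublet's own calls, 0.367 at resolution 2.0, 0.535 clustered without the Timp genes, 0.290 joined, 0.547 without cells holding a Krt8 UMI, 0.596 as a mean over cells, 0.456 without genes above 1% in the denominator and 0.539 thinned. In scratch_positive against scratch_negative, Timp1 changed direction at resolution 2.0 (0.869) and joined (0.513). It was 1.80 with a minimum of 200 genes, 2.19 with a mitochondrial limit of 5% or Scrublet's own calls, 2.23 without Ptprc cells, 1.94 without Krt8 cells, 2.36 as a mean over cells and 1.93 thinned. Timp2, which was not past the size rule, was 0.947 with Scrublet's own calls, 1.58 at resolution 2.0, 1.22 joined and 0.979 without Krt8 cells. Directions also changed for Timp1 in osteoblast-lineage cells without Krt8 cells (0.933), Timp4 there thinned (1.63, from 1 and 2 UMIs), and Timp2 in monocytes and macrophages within 1 cluster (0.896 and 0.958). Timp3 in that class, where 1 control cell held most UMIs, was 2.34 with a minimum of 1000 genes, 7.46 with Scrublet's own calls, 1.58 as a mean over cells and 2.79 thinned in scratch_negative, and 2.94 with Scrublet's own calls in scratch_positive. Joining cluster 26, the Ptprc and Krt8 exclusions and clustering without the Timp genes were chosen after seeing the data. Beyond the joined and finer classes, which add cells of cluster 26 by construction, the cause was not tested. Control stroma limits the depth, with 61 to 71 cells a class. No paired analysis was possible because each group had 1 library.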
